A study of Mus musculus with 16 samples.

Results

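The translation initiation factors are the proteins that bring the small ribosomal subunit, the initiator tRNA and an mRNA together at a start codon. Their genes were taken by name, as every known gene whose symbol began with Eif1 to Eif6, leaving out the Eif2ak kinases. This gave 50 genes among the 19069 known genes and 26625 entries of the count table, and all 50 passed the filter on low counts. The rule used symbols only, but it was set with earlier results of these data known.

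The RNA came from the medial prefrontal cortex (mPFC) of 16 male C57BL/6 mice aged 8 to 10 weeks, sequenced as cDNA on the Nanopore platform, in which each read covers a transcript molecule rather than a short fragment of it. Every mouse had received an adeno-associated virus into the mPFC. The Kdm7a-shRNA virus carried a short hairpin RNA against Kdm7a, a histone lysine demethylase, and the Ctrl virus carried a hairpin with no such target. The hairpin was expressed from a U6 promoter, which is not specific to a cell type, and which cells took up the virus is not measured here. Each virus was combined with morphine at 10 mg/kg or saline during 10 days of conditioned place preference training, and tissue was taken on day 7 of withdrawal. There were 3 Ctrl + Saline and 4 Ctrl + Morphine mice with the control virus, and 5 mice in Kdm7a-shRNA + Saline and 4 in Kdm7a-shRNA + Morphine with the knockdown virus. The question asked here was how far the initiation factor mRNAs differed with Kdm7a knockdown, with morphine, or with their combination.

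Initiation in most mRNAs starts when eIF4E binds the cap and, with the scaffold eIF4G and the helicase eIF4A, forms eIF4F. eIF2 carries the initiator tRNA as a GTP-bound complex and is recharged by its exchange factor eIF2B, while eIF3 holds the small subunit and eIF1, eIF1A and eIF5 set the start codon. Phosphorylation of eIF2 blocks eIF2B and starts the integrated stress response, and the eIF4E-binding proteins (4E-BPs) hold eIF4E back until mTORC1 phosphorylates them. Both controls are known to be used in synaptic plasticity and memory. They act on proteins, and the values here are mRNA levels only.

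The 4E-BPs compete with eIF4G for eIF4E through a short motif. The coding sequence around this motif is shown for the genes of the 2 more abundant 4E-BPs, because one passed the test under knockdown and the other did not. The bases come from the GENCODE transcripts, 63 of each, running from coding base 136 to 198 in Eif4ebp1 (chromosome 8) and from 139 to 201 in Eif4ebp2 (chromosome 10). Capitals mark the 21 bases that encode the motif.
Eif4ebp1: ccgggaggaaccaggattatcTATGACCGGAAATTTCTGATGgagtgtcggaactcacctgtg
Eif4ebp2: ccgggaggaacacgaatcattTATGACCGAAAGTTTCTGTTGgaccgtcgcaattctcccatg
The genes share 48 of the 63 bases shown and 18 of the 21 motif bases. Over their whole transcripts the best alignment covered 216 bases at 71.8% identity.

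Promoters are shown for 3 members whose transcript levels differed with knockdown in the tests given further on. Each window runs from 250 bases before to 50 bases after the RefSeq start on GRCm38.p6, is written on the strand of the gene, and has motif matches in capitals. The Eif3j1 window, chr2:122028330-122028629 on the plus strand, held 5 GC box matches, of which those at bases 165, 169 and 174 overlap.
Eif3j1: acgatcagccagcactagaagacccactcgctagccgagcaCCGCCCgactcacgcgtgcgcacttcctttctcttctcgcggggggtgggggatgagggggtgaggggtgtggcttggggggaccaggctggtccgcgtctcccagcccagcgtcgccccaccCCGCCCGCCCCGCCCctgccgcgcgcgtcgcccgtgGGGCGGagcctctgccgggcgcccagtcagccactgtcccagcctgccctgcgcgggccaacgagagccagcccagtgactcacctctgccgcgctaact
The Eif3k window, chr7:28981839-28982138 on the minus strand, held an E-box at base 207 and 2 overlapping NRF1 matches.
Eif3k: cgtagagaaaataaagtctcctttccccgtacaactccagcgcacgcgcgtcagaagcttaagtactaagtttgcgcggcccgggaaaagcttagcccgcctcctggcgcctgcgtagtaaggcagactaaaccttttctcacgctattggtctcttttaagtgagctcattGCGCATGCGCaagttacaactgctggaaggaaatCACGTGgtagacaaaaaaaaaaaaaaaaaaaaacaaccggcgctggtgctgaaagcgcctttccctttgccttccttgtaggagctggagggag
The Eif2b4 window, chr5:31193090-31193389 on the minus strand, held a GC box and an ETS match.
Eif2b4: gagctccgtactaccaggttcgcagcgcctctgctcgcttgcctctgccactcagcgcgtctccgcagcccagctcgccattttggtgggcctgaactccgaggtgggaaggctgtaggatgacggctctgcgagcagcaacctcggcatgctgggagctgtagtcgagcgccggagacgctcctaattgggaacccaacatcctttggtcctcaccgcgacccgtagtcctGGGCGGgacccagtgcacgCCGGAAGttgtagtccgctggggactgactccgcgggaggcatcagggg
Windows were at hand for 39 of the 50 members. The GC box (GGGCGG) occurred in 31 of these 39, or 79.5%, against 35.7% of all 32851 windows of the same length, counting either strand. The ETS motif (CCGGAAG) occurred in 15, or 38.5%, against 8.86% of all windows. The E-box (CACGTG) occurred in 10, or 25.6%, against 7.15%, and included the windows of Eif3k, Eif4e and Eif5a. NRF1 (GCATGCGC) occurred in 3 (7.69% against 2.71%) and the TATA motif (TATAAA) in 4 (10.3% against 13.6%). The ATF4 element searched (TGATGNAA) was found in 1 member, Eif2s3x (2.56% against 3.97%). Eif4ebp1 and Eif3j2, whose transcripts also differed with knockdown, had no window and were not searched. A member counted once if any of its windows held the motif, while the background is a share of windows. The 2 shares are thus not in the same unit, and a gene with more windows has more chances to count. They describe letters in a window and were not compared by a test.

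Total counts were 6596991 to 12418112 reads per mouse, and levels are given as normalized CPM, read counts scaled to the depth of each library with TMM factors of 0.913 to 1.07. Replicates correlated at r = 0.951 to 0.981 over all tested rows and at 0.970 to 0.997 over the members. The targeted gene was read first: normalized CPM of Kdm7a was 9.08 to 9.78 in Ctrl + Saline mice and 4.92 to 6.07 in Kdm7a-shRNA + Saline mice, and 6.19 to 8.89 against 3.01 to 6.28 with morphine. Its log2 fold change was −0.76 under saline (adjusted p = 0.0153) and −0.67 under morphine (adjusted p = 0.0506), so that the knockdown did not pass the test under morphine taken alone and passed when averaged over treatments (−0.71, adjusted p = 0.00154). Of the 10 cortical layer genes and the 10 neuronal markers, which share Slc17a7, all were detected and tested in this tissue. So were 9 of 10 striatal genes, at group means of 179 to 238 summed normalized CPM, against 468 to 639 for the cortical list. The median log2 fold change of the cortical list was −0.19 under saline, with 1 gene (Cux1) called, higher, and −0.34 under morphine with 0 called. Of 10 microglial marker genes, 9 were higher in the Kdm7a-shRNA virus mice under saline and 7 under morphine. Their summed level was 1013 to 1446 in Ctrl + Saline, 608 to 1280 in Ctrl + Morphine, 2039 to 6039 in Kdm7a-shRNA + Saline and 1312 to 5890 in Kdm7a-shRNA + Morphine mice. Among other markers, 3 of 10 endothelial genes were higher in each treatment, 2 of 10 astrocyte genes were higher under saline, 1 of 10 oligodendrocyte genes (Opalin) was higher under morphine, and 1 of 10 neuronal genes (Map2, −0.64) was lower under saline. The median log2 fold change of the neuronal markers was −0.28 under saline and −0.12 under morphine. The part of these markers in the members' differences was not tested. None of 7 tested T cell and infiltrating myeloid markers passed in either knockdown comparison by edgeR, with 0 and 2 at an unadjusted p under 0.05, and Cd4, Trac and Cd2 were too low to test.

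A member was called when edgeR's quasi-likelihood test gave an adjusted p under 0.05 over all 18826 rows tested and the change was at least 1.5-fold. Under saline 3 of the 50 members were called, Eif4ebp1, Eif3j1 and Eif3j2, all of them higher with knockdown. Across all rows 16.7% were called in this comparison, and across the 14162 known genes 12%, of which 9% were higher and 2.98% lower. The members' count lies near this background and is no result about the family. Under morphine 1 member was called, Eif4ebp1, again higher with knockdown, against 7.69% of all rows and 4.64% of known genes (3.37% higher and 1.27% lower).

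The sizes of the differences were small in most members. The median log2 fold change of the 50 was 0.03 under saline and 0.05 under morphine, beside 0.10 and 0.04 over all known genes. The median absolute value was 0.167 and 0.151, beside 0.298 and 0.234. In 34 members under saline and 37 under morphine the whole 95% interval of the difference lay within 1.5-fold in either direction. Of the 14162 known genes tested, 4283 under saline and 5295 under morphine had such an interval. Those members thus had their knockdown difference bounded at this size, with TMM factors as the scaling. In the other members a difference of 1.5-fold was not shown and not bounded. Summed over the family, normalized CPM under the Ctrl virus was 7081 ± 390 with saline (SD, n = 3) and 7168 ± 228 with morphine (n = 4). Under the Kdm7a-shRNA virus it was 7254 ± 216 with saline (n = 5) and 7253 ± 109 with morphine (n = 4). As a share of the raw counts the same sums were 0.739% ± 0.0472, 0.751% ± 0.0176, 0.691% ± 0.0306 and 0.707% ± 0.0264. The order of the groups thus depended on the scaling, and no direction was read from the sum. Scaling to library size alone shifted all rows, at their median, by −0.13 under saline and −0.11 under morphine on the log2 scale and lowered the share of called rows that were higher from 44.4% to 29.2% and from 37.2% to 24%. Eif4ebp1, Eif3j1 and Eif3j2 were called under that scaling as well.

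**Figure D1:**
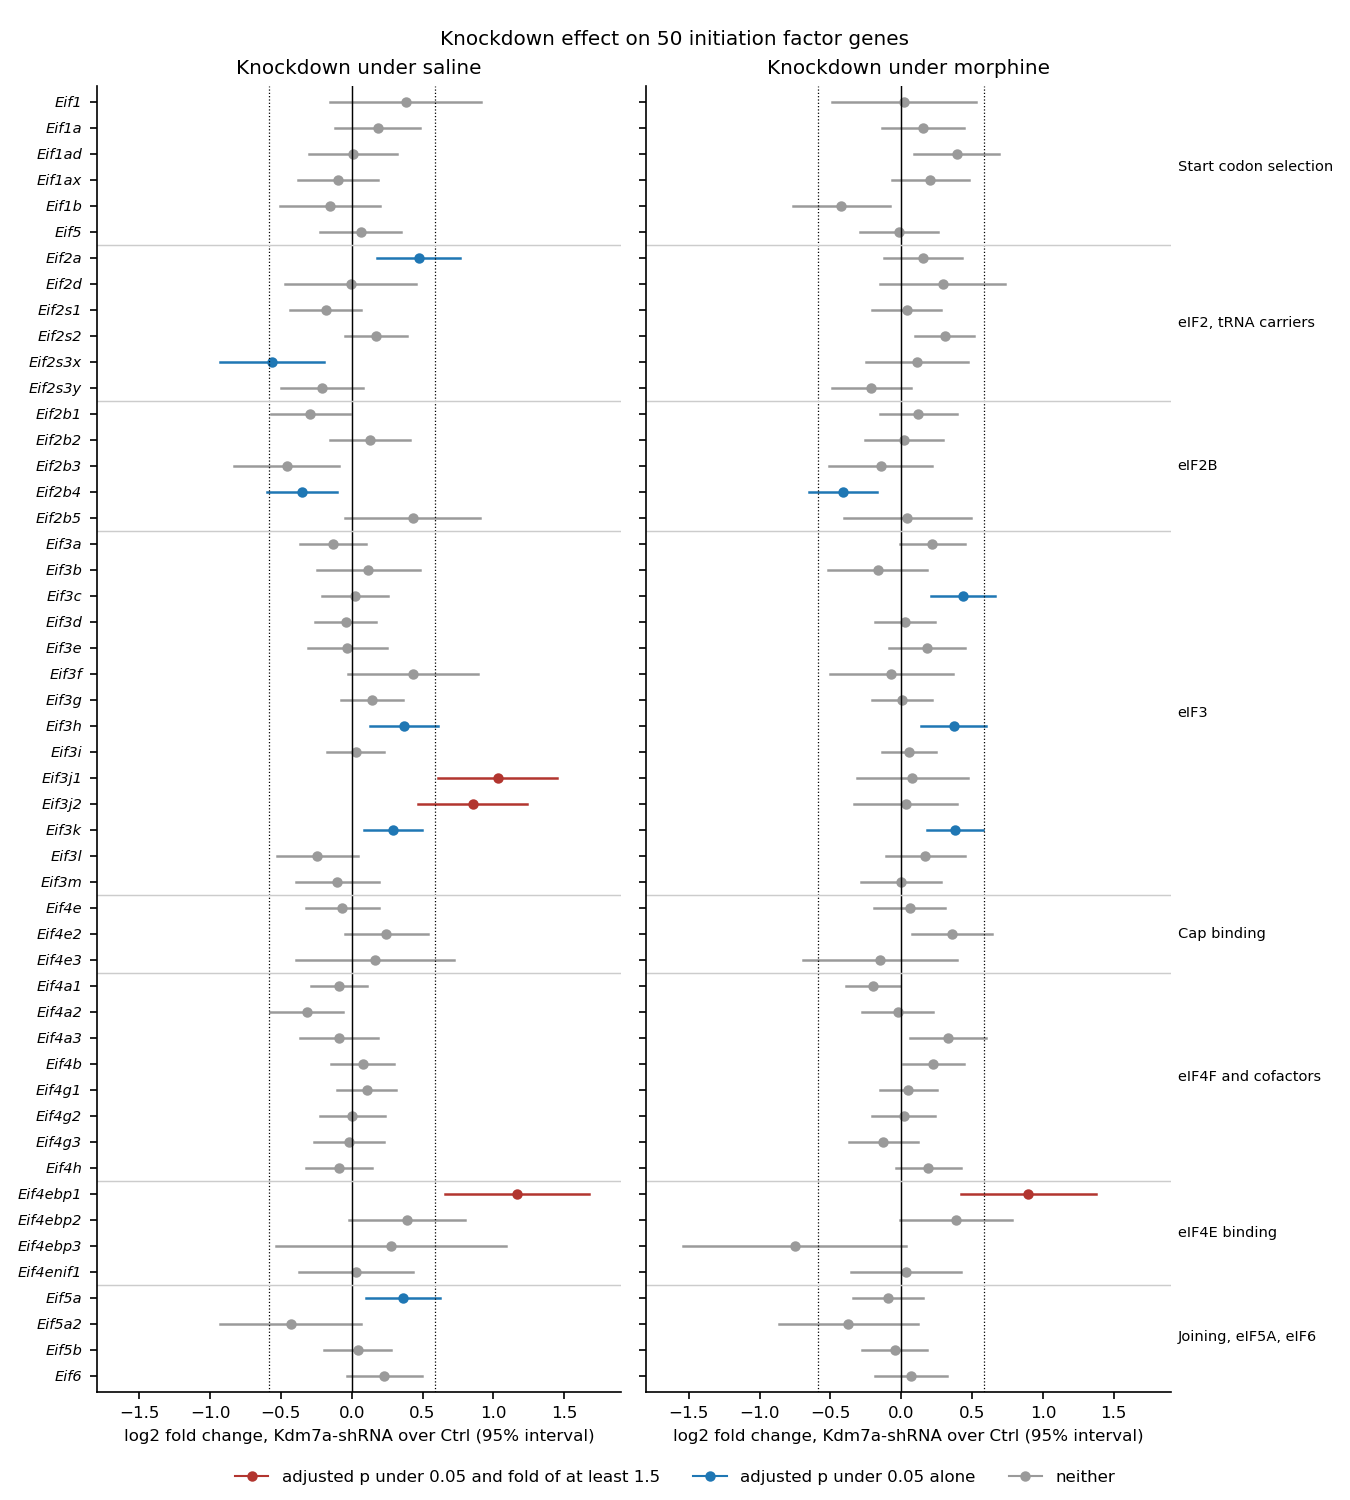
Log2 fold change of each of the 50 members in Kdm7a-shRNA against Ctrl virus mice, under saline and under morphine, with 95% intervals as horizontal bars and members grouped by role. Red points passed the adjusted p and the 1.5-fold limit (dotted lines), blue points the adjusted p alone and grey points neither, and 3 members under saline and 1 under morphine are red.

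The 4E-BPs held the member with the largest knockdown difference in each treatment. Eif4ebp1 (chr8:27260329-27276674, plus strand, 3 exons), the repressor of eIF4E named above, had normalized CPM of 10.2, 6.25 and 5.56 in Ctrl + Saline mice and 14.4, 17.7, 20.7, 12.6 and 16.5 in Kdm7a-shRNA + Saline mice. The morphine-treated mice had 8.49, 6.72, 8.64 and 6.85 in Ctrl mice and 10.4, 17.5, 17.9 and 11.0 in Kdm7a-shRNA mice. Every knockdown mouse was above every control mouse of its treatment, and the gap between the nearest mice was small, 12.6 against 10.2 under saline and 10.4 against 8.64 under morphine. Group means were 7.33 ± 2.49 (SD, n = 3) and 16.4 ± 3.13 (n = 5) under saline, and 7.67 ± 1.03 (n = 4) and 14.2 ± 4.04 (n = 4) under morphine. The log2 fold change was 1.16 under saline (SE 0.24, adjusted p = 0.0038) and 0.90 under morphine (SE 0.23, adjusted p = 0.0207). Its counts were 42 to 208 reads per mouse. The interaction of knockdown and morphine was −0.27 (SE 0.33, adjusted p = 0.84), so a difference between the treatments was not shown. The morphine call rested on few mice: it was lost without Ctrl + Morphine replicate 4 (log2 fold change 0.84, adjusted p = 0.0716), without Kdm7a-shRNA + Morphine replicate 2 (0.79, adjusted p = 0.0547) and without Kdm7a-shRNA + Morphine replicate 3 (0.76, adjusted p = 0.0789), while the saline call held without each mouse. Within the Kdm7a-shRNA + Saline group the mouse with the highest Eif4ebp1 also had the highest summed microglial markers (20.7 and 6039) and the mouse with the lowest had the lowest (12.6 and 2039). In the Kdm7a-shRNA + Morphine group replicates 1 to 4 had Eif4ebp1 at 10.4, 17.5, 17.9 and 11.0 and the markers at 2407, 2020, 5890 and 1312, so that the highest of each fell in replicate 3 and the lowest did not fall in the same mouse. In bulk tissue a change in the share of a cell type and a change of RNA per cell cannot be told apart, and the part of the microglial markers in this result was not tested.

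Eif4ebp2, the main 4E-BP of neurons, had 8.86, 11.6 and 7.29 in Ctrl + Saline mice and 14.1, 9.56, 13.7, 11.7 and 11.9 in Kdm7a-shRNA + Saline mice. With morphine the values were 7.69, 11.2, 7.30 and 7.49 in Ctrl mice and 9.50, 12, 12.3 and 10.1 in Kdm7a-shRNA mice. The groups overlapped in each treatment. The log2 fold change was 0.39 under saline (SE 0.19, adjusted p = 0.165) and 0.38 under morphine (SE 0.19, adjusted p = 0.21), with 95% intervals of −0.02 to 0.80 and −0.01 to 0.78. Averaged over treatments it was 0.39 (SE 0.13, adjusted p = 0.0406), below the 1.5-fold limit. Of the other 4E-binding genes, Eif4ebp3 was the least abundant member, at a mean of 1.51 normalized CPM, and its log2 fold change of −0.75 under morphine was not called (adjusted p = 0.22). Eif4enif1, which encodes the eIF4E transporter, had a log2 fold change of 0.03 under saline.

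**Figure D2:**
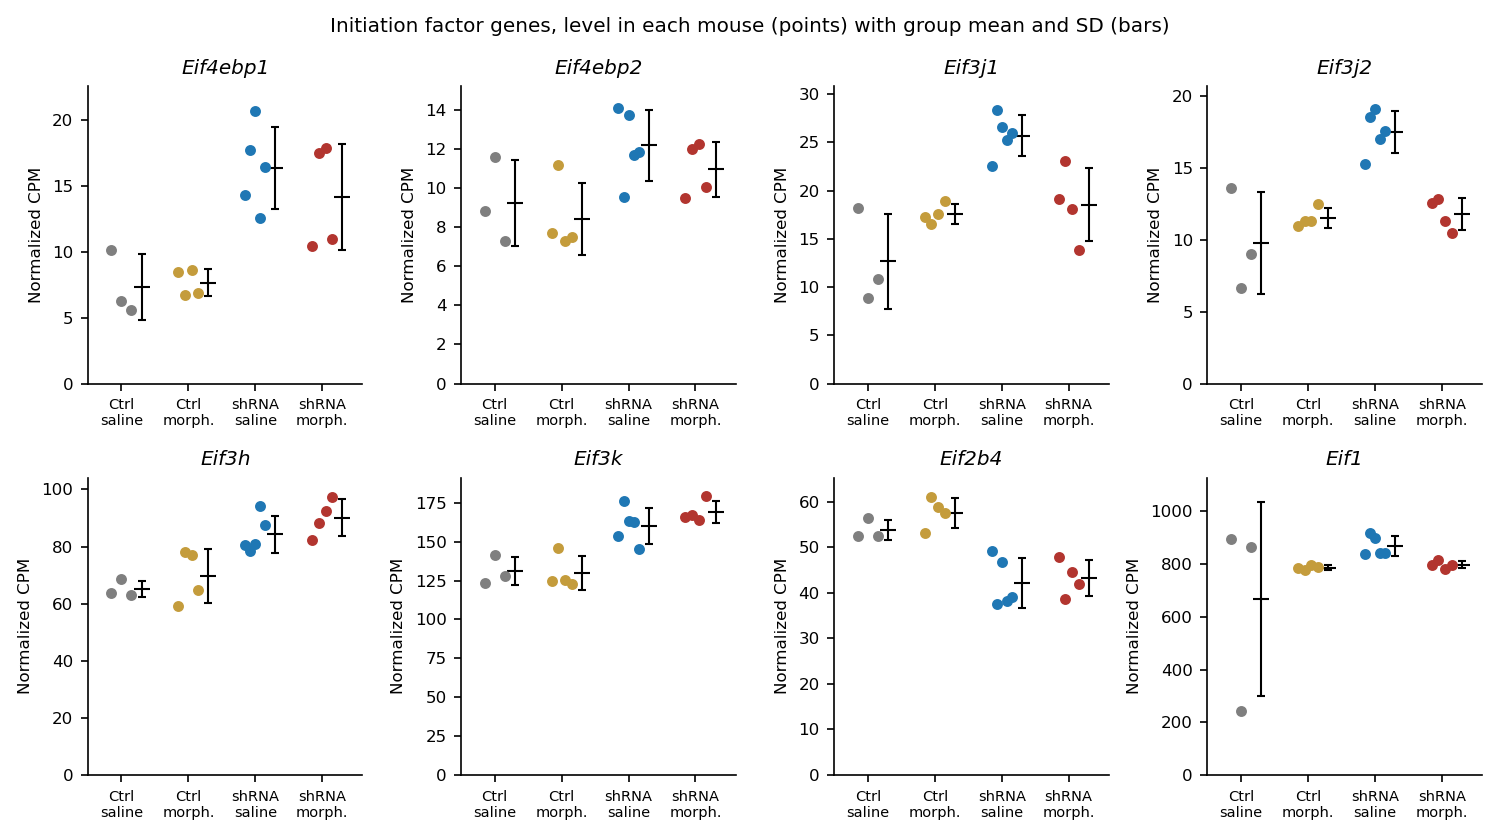
Normalized CPM of 8 members, 1 point per mouse in each of the 4 groups, with group means and SD as bars. Eif4ebp1, Eif3h and Eif3k lay higher and Eif2b4 lower in all Kdm7a-shRNA mice than in the Ctrl mice of the same treatment, Eif3j1 and Eif3j2 did so under saline, and Eif1 had 1 low mouse.

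eIF3 is the largest initiation factor and its 14 member genes included both other calls. The eIF3j subunit binds loosely in the decoding centre of the small subunit and takes part in start site recognition and ribosome recycling, and in the mouse it is encoded by Eif3j1 (chr2:122028546-122056598, plus strand, 8 exons) and by the intron-less copy Eif3j2. Eif3j1 had normalized CPM of 18.2, 8.88 and 10.9 in Ctrl + Saline mice and 22.5, 28.3, 26.5, 25.2 and 25.9 in Kdm7a-shRNA + Saline mice. With morphine it had 17.3, 16.5, 17.5 and 18.9 in Ctrl mice and 19.2, 23.0, 18.1 and 13.8 in Kdm7a-shRNA mice. The saline groups did not overlap and the morphine groups did. The log2 fold change was 1.03 under saline (SE 0.20, adjusted p = 0.00265) and 0.08 under morphine (SE 0.19, adjusted p = 0.836). Exons of Eif3j1 overlap Spg11 on the opposite strand and Gm47314 on the same strand, and whether the counting used strand is not stated.

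Eif3j2 had 13.6, 6.64 and 9.01 in Ctrl + Saline and 15.3, 18.5, 19.1, 17.0 and 17.6 in Kdm7a-shRNA + Saline mice, a log2 fold change of 0.85 (SE 0.18, adjusted p = 0.00453). With morphine its values were 11.0, 11.3, 11.3 and 12.5 in Ctrl and 12.6, 12.8, 11.3 and 10.5 in Kdm7a-shRNA mice (0.03, SE 0.17, adjusted p = 0.933). The saline groups were separate and the morphine groups were not. The pattern was that of Eif3j1, but the genes are not independent measurements. The 2379 bases of Eif3j2 align along their whole length to the Eif3j1 transcript with 99.4% identity, and the 2 levels correlated at r = 0.961 over the 16 mice. Reads of one cannot safely be told from reads of the other, so they are better read as a single call. Summed to 1 gene they gave 0.95 under saline (SE 0.19, adjusted p = 0.00262) and 0.06 under morphine (SE 0.17, adjusted p = 0.868).

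The difference between these treatments was tested as an interaction and did not pass. It was −0.95 for Eif3j1 (SE 0.27, adjusted p = 0.175), −0.82 for Eif3j2 (SE 0.25, adjusted p = 0.207) and −0.89 for the sum (SE 0.25, adjusted p = 0.167). Without Ctrl + Saline replicate 1, whose Eif3j1 level of 18.2 was the highest of its group, both genes passed for the interaction. Ctrl + Saline had 3 mice, and its Eif3j1 level spread more (12.7 ± 4.93, SD) than that of Kdm7a-shRNA + Saline (25.7 ± 2.13, n = 5).

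Among the remaining eIF3 genes, Eif3h and Eif3k were higher with knockdown in both treatments, with differences below the 1.5-fold limit. Eif3h (chr15:51786558-51865523, minus strand) encodes an eIF3 subunit with an MPN domain, and had 63.8, 68.5 and 63.2 in Ctrl + Saline against 80.5, 78.3, 80.8, 94.1 and 87.6 in Kdm7a-shRNA + Saline mice. In the morphine-treated mice it was at 59.0, 78.0, 76.9 and 64.7 against 82.1, 88.4, 92.5 and 97.3. The groups were separate in each treatment, and the log2 fold change was 0.37 under saline (SE 0.11, adjusted p = 0.0294) and 0.37 under morphine (SE 0.11, adjusted p = 0.0402). Eif3k (chr7:28971372-28981864, minus strand) encodes the smallest eIF3 subunit, which binds Eif3l. Its levels were 124, 141 and 128 against 154, 176, 164, 163 and 145 under saline, and 125, 146, 125 and 123 against 166, 167, 164 and 179 with morphine. These groups were separate as well, with log2 fold changes of 0.29 (SE 0.10, adjusted p = 0.0419) and 0.38 (SE 0.09, adjusted p = 0.0185). Averaged over treatments both were clearer, at 0.37 for Eif3h (SE 0.08, adjusted p = 0.00216) and 0.34 for Eif3k (SE 0.07, adjusted p = 0.00137).

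Differences of this size depend on the scaling, and transcript length is given beside them. With library size alone Eif3h was 0.24 (adjusted p = 0.15) and 0.27 (adjusted p = 0.136), and Eif3k was 0.16 (adjusted p = 0.26) and 0.28 (adjusted p = 0.0688). Length classes were taken over known genes with a mean level of at least 10 normalized CPM, not over all known genes tested. Those with transcripts under 1000 bases, as for Eif3k at 774, had a median log2 fold change of 0.143 under saline and 0.105 under morphine. Those of 1000 to 2000 bases, as for Eif3h at 1295, had 0.111 and 0.064, and those of 4000 bases or more, as for Eif3j1 at 5413, had −0.053 and −0.0495. Both eIF3 genes lay above the median of their length class, and the part of transcript length in their difference was not tested.

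Eif3c, a core subunit, passed the adjusted p under morphine only. It had 106, 112 and 112 in Ctrl + Saline and 94.4, 113, 116, 123 and 111 in Kdm7a-shRNA + Saline mice, a log2 fold change of 0.02 (adjusted p = 0.906). Ctrl and Kdm7a-shRNA mice given morphine had 76.8, 98.2, 94.1 and 78.4, and 114, 120, 110 and 125, respectively, a log2 difference of 0.43 (SE 0.11, adjusted p = 0.0188). With library size alone it was 0.33 and did not pass (adjusted p = 0.0625). The Ctrl + Morphine mice were the low group of the 4, while the interaction did not pass (0.41, adjusted p = 0.311). The 14 eIF3 genes ranged from −0.24 (Eif3l) to 1.03 (Eif3j1) under saline and from −0.17 (Eif3b) to 0.43 (Eif3c) under morphine, and 10 and 12 of them had intervals within 1.5-fold.

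eIF2B was the group with a member lower in each knockdown comparison. Eif2b4 (chr5:31187558-31193430, minus strand, 13 exons) encodes the delta subunit of eIF2B, part of its regulatory core. It had 52.6, 56.4 and 52.5 normalized CPM in Ctrl + Saline mice and 49.2, 37.6, 46.8, 38.1 and 39.1 in Kdm7a-shRNA + Saline mice. After morphine it stood at 53.2, 61.0, 58.8 and 57.6 in Ctrl and 47.8, 38.7, 44.7 and 41.9 in Kdm7a-shRNA mice. All 9 knockdown mice lay below all 7 control mice. The log2 fold change was −0.35 under saline (SE 0.12, adjusted p = 0.0412) and −0.41 under morphine (SE 0.11, adjusted p = 0.0301), and −0.38 averaged over treatments (SE 0.08, adjusted p = 0.00216), below the 1.5-fold limit in each. Over the alternatives the adjusted p of Eif2b4 ran from 0.0070 to 0.144 under saline and from 0.0091 to 0.0801 under morphine. Neither pass thus held in every fit. Its transcript, at 1922 bases, belongs to the length class with medians of 0.111 and 0.064. Eif2b4 shares exonic sequence with Snx17 on the opposite strand, and whether the counting used strand is not stated.

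The other 4 eIF2B genes did not pass in either comparison. Under saline the log2 fold changes of the 5 ran from −0.46 (Eif2b3, adjusted p = 0.0741) to 0.43 (Eif2b5), and under morphine from −0.41 (Eif2b4) to 0.12 (Eif2b1). Summed over its 5 genes, eIF2B was 133 to 147 in Ctrl + Saline, 132 to 147 in Ctrl + Morphine, 116 to 132 in Kdm7a-shRNA + Saline and 123 to 134 in Kdm7a-shRNA + Morphine mice.

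eIF2 itself has 3 subunits, and Eif2s1 encodes the alpha subunit whose phosphorylation starts the integrated stress response. Eif2s1 had 51.5, 48.8 and 57.6 in Ctrl + Saline and 40.8, 42.7, 45.7, 52.9 and 49.6 in Kdm7a-shRNA + Saline mice. With morphine it had 47.2, 42, 54.8 and 49.9 against 49.5, 52.5, 51.8 and 45.4. The groups overlapped, with log2 fold changes of −0.18 (95% interval −0.43 to 0.07, adjusted p = 0.294) and 0.04 (−0.20 to 0.28, adjusted p = 0.869).

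Eif2s3x, the X-linked gene of the gamma subunit, was lower with knockdown under saline by the adjusted p. Its levels were 51.3, 59.9 and 51.9 in Ctrl + Saline and 23.6, 41.9, 46.1, 41.3 and 31.4 in Kdm7a-shRNA + Saline mice, groups that did not overlap. The log2 fold change was −0.56 (SE 0.18, adjusted p = 0.0309), just under the 1.5-fold limit. It was called, at −0.70 to −0.61, with library size alone, with at least 10 counts in every mouse and with known genes only. So it was without Ctrl + Saline replicate 1 and without Kdm7a-shRNA + Saline replicate 2, 3 or 4. Over the alternatives its adjusted p under saline ran from 0.0086 to 0.131. With morphine it had 39.0, 49.8, 49.1 and 40.1 against 55.0, 47.7, 48.1 and 41.6, with overlap and a log2 difference of 0.11 (adjusted p = 0.731). The interaction was 0.67 (SE 0.25, adjusted p = 0.298). Its transcript shares 1426 bases at 86.4% identity with the Y-linked copy Eif2s3y, whose log2 fold changes were −0.21 (adjusted p = 0.294) and −0.21 (adjusted p = 0.34).

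Eif2a encodes a separate carrier of initiator tRNA and is not a subunit of eIF2. It had 24.7, 25.5 and 33.9 in Ctrl + Saline and 41.4, 39.4, 33.3, 37.8 and 42.3 in Kdm7a-shRNA + Saline mice. With morphine the values were 34.4, 38.7, 34.6 and 28.0 against 40.0, 34.3, 40.1 and 36.6. The groups overlapped in both treatments, and the log2 fold change was 0.47 under saline (SE 0.14, adjusted p = 0.0239) and 0.15 under morphine (adjusted p = 0.506). Its exons overlap Serp1 on the opposite strand, with the same doubt over strand. Without Ctrl + Saline replicate 3, the mouse at 33.9, it passed the fold limit as well (0.61, adjusted p = 0.0234). With library size alone it was 0.34 under saline and did not pass (adjusted p = 0.0978).

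No cap-binding or eIF4F gene was called in a knockdown comparison. Eif4e, the cap-binding protein, had 58.8, 64.2 and 80.9 in Ctrl + Saline and 58.9, 58.9, 67.4, 73.2 and 65.6 in Kdm7a-shRNA + Saline mice, and 54.6, 68.2, 62.2 and 69.5 against 69.9, 66.5, 63.9 and 65.2 with morphine. The groups overlapped in both treatments, and the log2 fold changes were −0.07 (95% interval −0.33 to 0.19, adjusted p = 0.734) and 0.06 (−0.19 to 0.31, adjusted p = 0.797). The 8 genes grouped by name as eIF4A, eIF4B, eIF4H and eIF4G ranged from −0.32 (Eif4a2) to 0.10 (Eif4g1) under saline and from −0.20 (Eif4a1) to 0.33 (Eif4a3) under morphine. This grouping follows symbols, and not every gene in it need act in eIF4F. Of these 8 genes, 8 and 7 had intervals within 1.5-fold. Of the 3 cap-binding genes, Eif4e2, a cap-binding repressor, was 0.30 averaged over treatments (SE 0.10, adjusted p = 0.0265).

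None of the 4 genes acting late in initiation or on the free subunits was called, and under saline 2 of them had intervals within 1.5-fold. Eif5a, the hypusine-containing factor that promotes peptide bond formation, had 943, 667 and 681 in Ctrl + Saline and 1147, 897, 964, 1043 and 856 in Kdm7a-shRNA + Saline mice. With morphine it had 1035, 1037, 941 and 977 against 875, 920, 1027 and 913. The groups overlapped in both, and the log2 fold change was 0.36 under saline (SE 0.12, adjusted p = 0.0457) and −0.10 under morphine (adjusted p = 0.66). With library size alone the saline value of Eif5a was 0.23 (adjusted p = 0.158). Its saline adjusted p ran from 0.0105 to 0.245 over the alternatives. Eif6, which keeps the large subunit from joining early, had 31.6, 34.1 and 30.3 against 39.4, 39.3, 34.6, 34.1 and 40.3 under saline and 30.6, 36.8, 32.7 and 29.7 against 29.1, 31.2, 37.0 and 38.6 with morphine. The saline groups were separate by a very small gap and the morphine groups overlapped. Its log2 fold changes were 0.23 (adjusted p = 0.204) and 0.07 (adjusted p = 0.774). Eif5a2, the less abundant eIF5A gene, had −0.43 under saline (adjusted p = 0.209) and −0.37 under morphine (adjusted p = 0.338).

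The start codon group held a library that stood apart. Eif1, which keeps the scanning ribosome open, was 243 normalized CPM in Ctrl + Saline replicate 2 and 777 to 917 in the other 15 mice, a gap of 3.20-fold. Eif1b was lowest in that mouse too, at 101. In the same library 13 of 2123 known genes with at least 50 CPM in the other mice lay below 0.5 of the level of the lowest other mouse, and Eif1 was the 1 member among them. The Eif1 log2 fold change of 0.38 under saline (adjusted p = 0.307) became −0.01 without that mouse. None of the 6 genes of this group was called by edgeR in either knockdown comparison, with 0 under saline and 2 under morphine at an unadjusted p under 0.05.

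**Figure D3:**
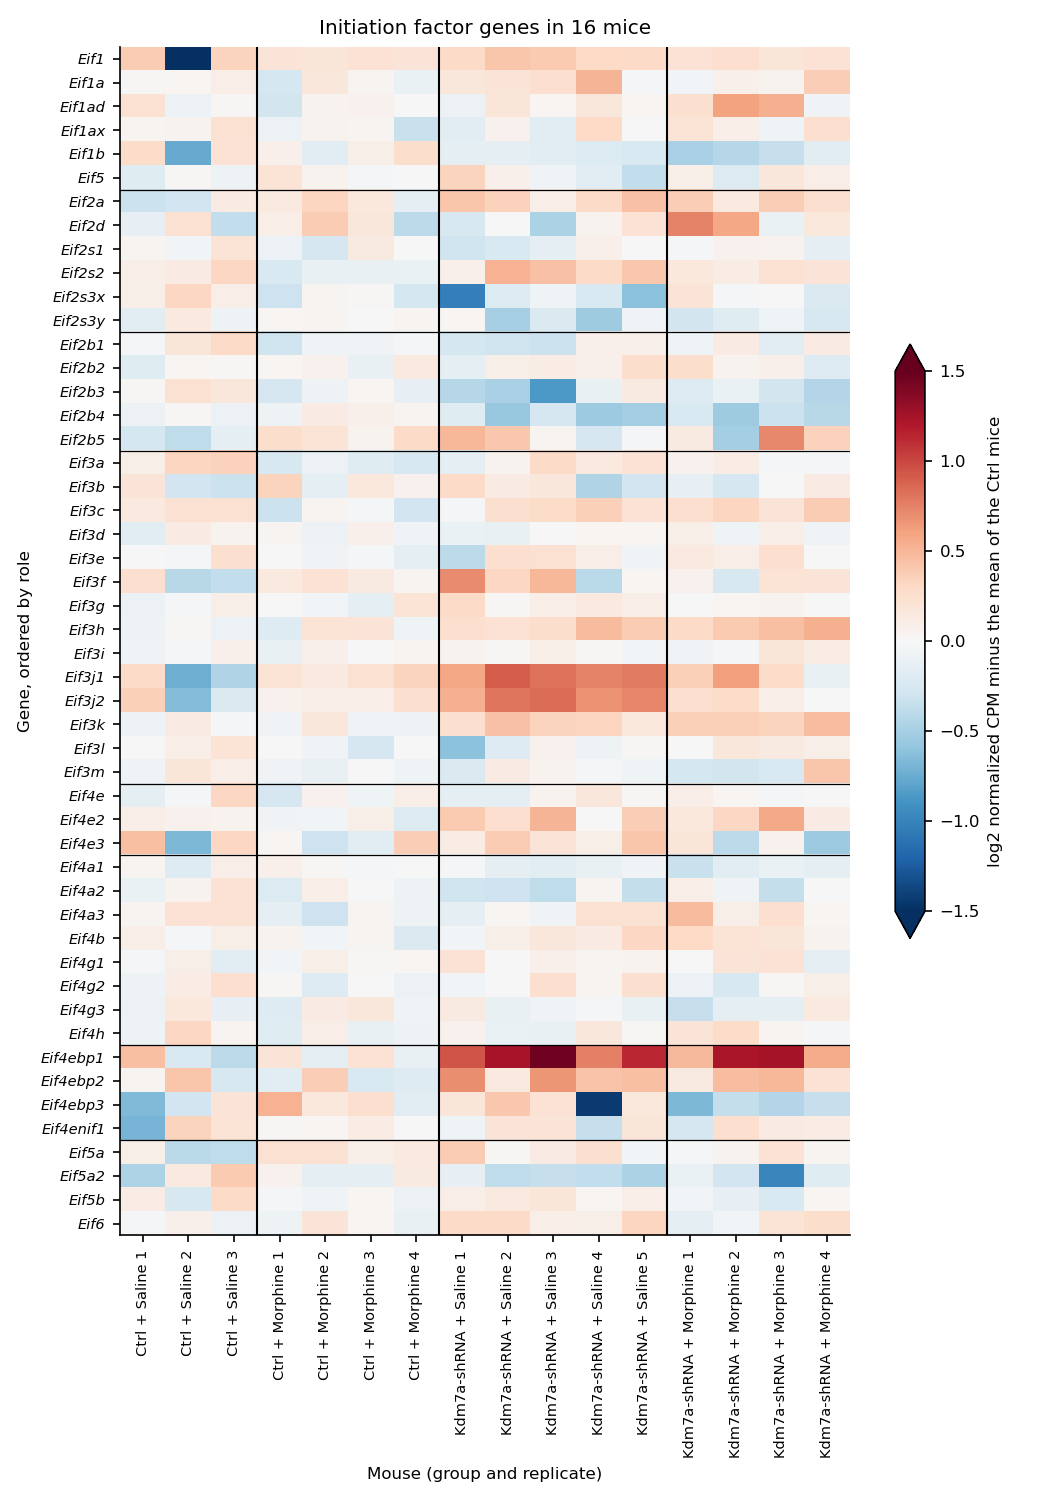
Log2 normalized CPM of each member in each mouse, as the difference from the mean of the 7 Ctrl virus mice, with members in rows grouped by role and mice in columns grouped by virus and treatment. Most rows are pale, Eif4ebp1 is higher across the Kdm7a-shRNA columns, and Eif1 is low in 1 Ctrl + Saline mouse.

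Counting members by the adjusted p alone, without the fold limit, brought in more of the small differences. Under saline 9 members passed, against 16.1% of known genes, with 7 higher (Eif2a, Eif3h, Eif3j1, Eif3j2, Eif3k, Eif4ebp1 and Eif5a, against 11.5% of known genes) and 2 lower (Eif2b4 and Eif2s3x, against 4.58%). Under morphine 5 passed, against 6.42%, with 4 higher (Eif3c, Eif3h, Eif3k and Eif4ebp1, against 4.51%) and 1 lower (Eif2b4, against 1.91%). Eif4ebp1, Eif3h, Eif3k and Eif2b4 were thus on both lists. The share of known genes that passed in both was not counted, so no result is read from this overlap. The comparisons use different mice but came from 1 fit with a shared estimate of the spread. Averaged over treatments 11 members passed, against 22.8% of known genes, 10 of them higher (against 16%) and Eif2b4 lower (against 6.78%). Groups that did not overlap were found in 8 members under saline, where 19.6% of known genes had such groups (Eif3h, Eif3j1, Eif3j2, Eif3k, Eif4ebp1 and Eif6 above the controls, Eif2b4 and Eif2s3x below), and in 14 under morphine, where 11.9% had. These 14 were Eif2s2, Eif3a, Eif3c, Eif3e, Eif3h, Eif3k, Eif4b, Eif4e2 and Eif4ebp1 above the controls and Eif1b, Eif2b4, Eif2s3y, Eif4a1 and Eif4ebp3 below them, named after their values were seen.

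Morphine itself was compared within each virus. No member was called by edgeR in Ctrl virus mice, where 0% of all rows were called, or in Kdm7a-shRNA mice, where 0.00531% were called, and DESeq2 and edgeR's exact test also called 0 members in each. At an unadjusted p under 0.05 there were 5 members in each comparison. Log2 fold changes ran from −0.44 (Eif3a) to 0.49 (Eif4ebp3) with the Ctrl virus and from −0.57 (Eif3j2) to 0.45 (Eif2d) with the Kdm7a-shRNA virus. The 95% interval lay within 1.5-fold in 35 and 41 of the 50 members. With the Kdm7a-shRNA virus 6837 of 14162 known genes had such an interval, and no such count was at hand for the Ctrl virus. The interaction of knockdown and morphine called 0 members by edgeR, where 0.085% of all rows were called, with 9 at an unadjusted p under 0.05 and 0 by DESeq2, and the lowest adjusted p was that of Eif3j1.

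The genes around initiation were read from 5 further lists, as counts against the same background. The lists were chosen with earlier results of these data known, so the counts are a description and no test of a list. Of 17 tested genes of the integrated stress response, the program that follows eIF2 phosphorylation, 10 were higher and 0 lower with knockdown under saline, and 7 higher and 0 lower under morphine. Known genes were higher in 9% and 3.37%. With at least 10 counts required in every mouse, which leaves fewer genes to test, 6 were higher under saline, and over the alternatives the morphine count was 5 to 8. The median log2 fold change of the list was 1.16 and 0.68. Chac1, a glutathione-degrading target of ATF4, had 2.38, 2.05 and 2.65 in Ctrl + Saline and 10.8, 13.8, 11.5, 10.2 and 9.45 in Kdm7a-shRNA + Saline mice (log2 fold change 2.24, adjusted p = 7.2e-05). With morphine its values were 3.79, 5.44, 3.16 and 3.64 against 7.51, 12.9, 11.6 and 8.19 (1.33, adjusted p = 0.00219). Atf3, a stress-induced transcription factor, had 1.19, 1.37 and 0.397 against 9.08, 11.5, 12, 5.85 and 11.0 under saline (3.27, adjusted p = 2.0e-04) and a log2 fold change of 2.58 under morphine (adjusted p = 0.00105). Mthfd2 and Shmt2, mitochondrial enzymes of one-carbon metabolism, were at 1.67 (adjusted p = 4.9e-04) and 1.72 (adjusted p = 5.5e-04) under saline. Under morphine Mthfd2 was at 1.38 (adjusted p = 0.00323) and Shmt2 at 0.68 (adjusted p = 0.0734). Summed over the list, the level was 371 ± 2.28 (SD, n = 3) in Ctrl + Saline, 375 ± 22.9 (n = 4) in Ctrl + Morphine, 672 ± 74.6 (n = 5) in Kdm7a-shRNA + Saline and 603 ± 92.1 (n = 4) in Kdm7a-shRNA + Morphine mice. The microglial markers given above were higher in the same groups, and their part in these values was not tested. Among the initiation factors Eif4ebp1 was the 1 gene called in both comparisons. The share of known genes called in both was not counted, and a link of Eif4ebp1 to this list was not tested.

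The upstream control genes moved less. Of 11 tested eIF2 kinase and phosphatase genes, 2 were higher under saline, Eif2ak3 (the endoplasmic reticulum kinase PERK, 0.80, adjusted p = 0.033) and Dnajc3 (an inhibitor of eIF2 kinases, 0.75, adjusted p = 0.0249), and 0 under morphine. Among known genes 9% were higher under saline. Neither call held without Ctrl + Saline replicate 2, without Ctrl + Saline replicate 3, with library size alone or with known genes only, when the count was 0. One of the calls was lost without Ctrl + Saline replicate 1, without Kdm7a-shRNA + Saline replicate 1, 2 or 3, in the exact test and in the compared groups alone. Of 17 genes of mTORC1 and 4E-BP control, 5 were higher under saline and 2 under morphine. Sesn2, a stress-induced inhibitor of mTORC1, was at 1.83 under saline (adjusted p = 0.00201) and 1.01 under morphine (adjusted p = 0.0428). It belongs to the integrated stress response list as well, so its calls count in both lists and the lists are not separate evidence. Mknk1, a kinase of eIF4E, was at 0.79 (adjusted p = 0.0286) and 1.14 (adjusted p = 0.00791). Akt1s1, an inhibitory subunit of mTORC1, and Rheb, the GTPase that activates it, were higher under saline (1.45, adjusted p = 0.00842, and 0.72, adjusted p = 0.0121) and at 0.00 and −0.28 under morphine. Without Ctrl + Saline replicate 2 the saline count was 2, and without Ctrl + Saline replicate 3 it was 1, Sesn2. The morphine count fell to 1, Mknk1, without any of the 4 Ctrl + Morphine mice, without Kdm7a-shRNA + Morphine replicate 1 or 3, and in 4 of 9 processing alternatives. These counts stand beside 9% of known genes higher under saline and 3.37% under morphine.

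Of 18 cap and poly(A) partners, 2 were higher and 1 lower under saline and 0 under morphine, near the 9% and 2.98% of known genes. Pabpc1, the cytoplasmic poly(A)-binding protein, was at 1.12 (adjusted p = 0.00116), Dap at 1.13 (adjusted p = 0.0332) and Paip2b, an inhibitor of poly(A)-binding protein, at −0.88 (adjusted p = 0.00215). Of 16 genes of elongation, termination and recycling, 1 was higher, Dhps (the first enzyme of hypusine formation on eIF5A, 0.84, adjusted p = 0.0154). Another 2 were lower, Eef1e1, of the tRNA synthetase complex (−0.69, adjusted p = 0.00604) and Abce1, the ribosome recycling factor (−0.71, adjusted p = 0.00768), and 0 were called under morphine. The 3 calls of 16 genes stand beside 12% of known genes.

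**Figure D4:**
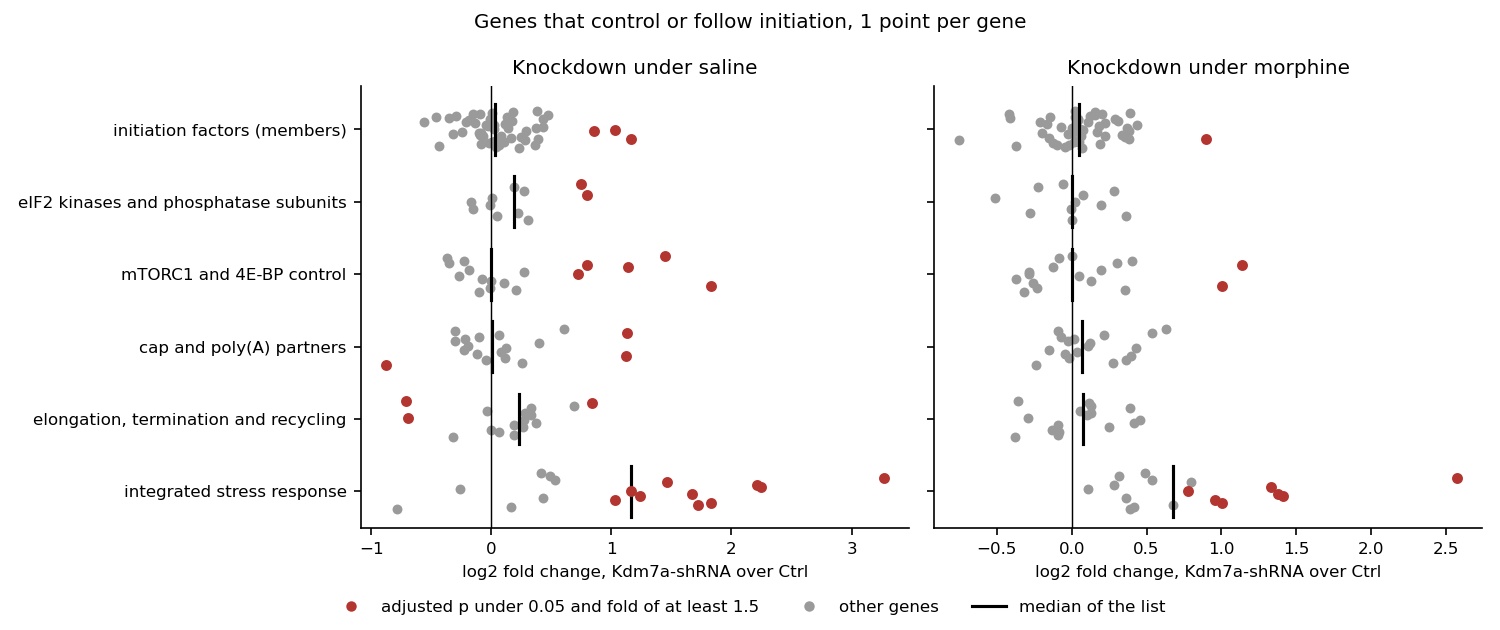
Log2 fold change with knockdown of each tested gene in the initiation factors and in 5 lists of genes around them, 1 point per gene, under saline and under morphine, with called genes in red and the median of each list as a black line. The initiation factors lie close to 0 with few red points, while the integrated stress response list has 10 and 7 red points and medians of 1.16 and 0.68. The lists were chosen with earlier results of these data known.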

How the data were processed

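cDNA-PCR libraries of mPFC RNA from 16 mice were run on Nanopore flow cells. According to the study's methods, short and low-quality reads and reads of ribosomal RNA were discarded by the authors, and full-length reads were mapped to mm10 with minimap2 and merged into transcripts with Pinfish and cDNA Cupcake. The submitters' processing notes name edgeR 3.8.6. The deposited counts are reads per gene, not normalized. The deposited CPM values are each count divided by its column total, to within 4.99e-06, and served only for that check.

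The tests used edgeR 4.0.16 under R 4.3.3, with limma 3.58.1 installed. The steps were filterByExpr, TMM factors and the quasi-likelihood test in 1 fit of 4 groups, adjusted by the Benjamini-Hochberg method over 18826 rows. Calls needed an adjusted p under 0.05 and 1.5-fold. The common biological coefficient of variation was 0.215. P-values measure the spread between these mice. Depth was 6596991 to 12418112 reads per mouse, and reads from PCR without molecular identifiers are not independent molecules. The scripts were tested on simulated data. Alternatives were RLE factors, library size alone, other filters, known genes only, DESeq2 1.42.0, edgeR's exact test, the compared groups alone, each mouse left out, and a replicate block. Same-numbered mice of different groups are different animals, and of 21 such pairs 6 correlated over 0.1 (r from −0.10 to 0.39), so the numbers were not used as pairs.

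Values in every mouse are given for called members and for Eif2s1, Eif4e, Eif4ebp1, Eif4ebp2, Eif5a and Eif6, and other members by counts and ranges. Eif2a, Eif2b4, Eif2s3x, Eif3c, Eif3h, Eif3k, which passed the adjusted p alone, and Eif1 were added after their values were seen, as were other members named singly. In each further list at most 4 genes with the smallest p among those called are named. The members and the lists were chosen with earlier results of these data known. Promoters are from RefSeq on GRCm38.p6 (not at hand: Eif4ebp1, Eif1a, Eif2b3, Eif3e, Eif3h, Eif3i, Eif3j2, Eif4e3, Eif4ebp3, Eif4g2 and Eif6), transcripts and positions from GENCODE on GRCm38, which is mm10.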

Additional observations from a re-analysis of the deposited data

Results flagged for a closer look

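In Ctrl + Morphine replicate 2, 2 of the named members lay far from the other 3 mice of the group. Eif3k was at 146 normalized CPM there, against 123 to 125 in the others, and the gap made up 0.893 of the range of the group. Eif4ebp2 was at 11.2 there, against 7.30 to 7.69, and the gap made up 0.902 of the range. These were 2 of 45 groups of 4 or 5 mice examined by Dixon's test at the 95% level, which chance alone marks at about 1 group in 20. The groups examined share mice and are not independent, and both marks fell in the same library, so this rate is no measure of the pair. The cause was not tested, and no result is read from these marks. Ctrl + Saline has 3 mice and was not examined in this way. Ctrl + Morphine replicate 2 also had 9 known genes, none of them a member, below 0.5 of the level of the lowest other mouse.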

How the results depend on the processing

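Of 1022 values of the 15 named members under an alternative, 1011 kept their side of the threshold, 3 lost the call and 8 gained it. Of values that passed in either fit, 0 reversed. Values that passed in neither fit counted as kept, and 39 of these changed sign. The 3 were Eif4ebp1 under morphine. The 8 were Eif2s3x under saline, lower, and Eif2a under saline without Ctrl + Saline replicate 3. Under saline the members called were 3, but 5 with library size alone (adding Eif2b3 and Eif2s3x, lower) and 9 by the adjusted p alone, and 3 to 4 without any 1 mouse. Eif2s3x was also called, lower, with at least 10 counts in every mouse and with known genes only. Leaving out Eif3j2, chosen after seeing the data, gave 2. Under morphine the member called was 1, but 5 by the adjusted p alone and 0 to 1 without any 1 mouse. Both morphine comparisons gave 0 throughout. The interaction gave 0, and 0 to 2 without any 1 mouse. The cause was not tested. With a replicate block the counts were 4 under saline (adding Eif2b3), 1 under morphine and 0 in the other comparisons. The replicate numbers are only names, so this block is no pairing of animals.

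Over the alternatives the adjusted p of Eif4ebp1 ran from 1.2e-04 to 0.0358 under saline and from 0.00374 to 0.0789 under morphine, and that of Eif3j1 under saline from 3.4e-05 to 0.0282. Ctrl + Saline had 3 mice and Eif4ebp1 had 42 to 208 reads per mouse, and 16 members under saline had intervals that reached past 1.5-fold. Protein and phosphorylation were not measured.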

Other observations

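How much a member varied within its group differed widely. The median within-group coefficient of variation was lowest in Eif1, at 3.04% (the median of the 4 groups, so that its low mouse weighs little), and highest in Eif4ebp3, the least abundant member, at 28.4%. Across 7717 known genes with at least 10 normalized CPM, transcript length correlated with the deviation of each mouse from the median of the other mice. Spearman's rho over genes was 0.0214 to 0.255 in the Ctrl mice, −0.21 to −0.0227 in the Kdm7a-shRNA + Saline mice and −0.182 to 0.109 in the Kdm7a-shRNA + Morphine mice. Genes are not independent replicates, and these values describe the libraries only. The highest value, 0.255, was that of Ctrl + Saline replicate 2, the library with the low Eif1. Atf4, the transcription factor whose own translation rises when eIF2 is phosphorylated, was named after its values were seen. Its mRNA was higher with knockdown by 0.53 on the log2 scale under saline (adjusted p = 0.00322) and 0.54 under morphine (adjusted p = 0.00554), below the 1.5-fold limit, and the translation of that mRNA was not measured.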
